A study of Mus musculus with 22 samples.

Results

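The clustered protocadherin genes are the 58 genes, of 55450 in the annotation, whose symbols in GENCODE release M21 start with Pcdha, Pcdhb or Pcdhg and which lie in a row on chromosome 18 of mm10. The alpha subcluster held 14 gene entries (chr18:36930184-37187661), the beta subcluster 22 (chr18:37264938-37524479) and the gamma subcluster 22 (chr18:37661793-37841873), all on the plus strand. They overlapped 10 of the 26327 bins of 100 kb in which 5mC was given and 2 of the 2641 bins of 1 Mb in which 5hmC was given. The 100 kb bins within 1 Mb on either side (20 bins) and the adjoining 1 Mb bins (2 bins) served as flanks.

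Clustered protocadherins are cell adhesion proteins of the neuronal surface that bind copies of themselves on other cells and are best known for letting the branches of a neuron recognize and avoid each other. In the alpha and gamma subclusters each gene has a first exon and a promoter of its own and is spliced to constant exons at the end of the subcluster, which encode a shared intracellular tail, whereas beta genes are single-exon genes without such a tail. A neuron typically uses only a few of the alternate promoters, chosen by chance, while the C-type genes at the ends of the alpha and gamma subclusters (Pcdhac1, Pcdhac2, Pcdhgc3, Pcdhgc4 and Pcdhgc5) are regulated apart from the others. Unused promoters are methylated, and the insulator protein CTCF, whose binding is sensitive to methylation, loops used promoters to distant enhancers together with cohesin.

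The tissues were cortex, olfactory bulb and cerebellum of C57BL/6 mice at 8 weeks of age, which the study describes as female. None of them carried a transgene or a treatment according to the labels, and the replicates came from independent mice. Which libraries of different tissues came from the same mouse is not given. Tests over the libraries of all tissues may therefore count a mouse more than once. OxBS-seq, a bisulfite method with a chemical oxidation step that removes 5hmC from the readout and leaves 5mC, gave 5mC in 7 libraries, 3 from cortex and 2 each from olfactory bulb and cerebellum. TAB-seq, where a glucose shields 5hmC while TET converts 5mC and leaves 5hmC as the readout, gave 5hmC in 3 libraries per tissue.

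All values are levels from 0 to 1, deposited per bin without read counts or coverage, so the depth behind a bin is unknown and the SD between libraries is the only error given. Whole tissue was used, and so fewer cells with a modification and a lower level per cell cannot be told apart. Replicate libraries correlated across bins with Pearson's r from 0.947 to 0.982 for 5mC and from 0.994 to 0.998 for 5hmC. As a check of the labels, the bins of cortical excitatory neuron markers had their lowest mean 5mC in cortex for 5 of 5 genes. Those of olfactory bulb interneuron markers had it in olfactory bulb for 3 of 5, and those of cerebellar granule neuron markers in cerebellum for 4 of 6. The count for cortex is a weak check, since most of the genome had less 5mC there. Of the 25664 bins tested, 88.3% were above their cortex level for olfactory bulb and 88.0% for cerebellum. Across all autosomal bins mean 5mC was 0.674 ± 0.0147 (SD, n = 3) in cortex, 0.705 ± 0.00296 (n = 2) in olfactory bulb and 0.732 ± 0.0115 (n = 2) in cerebellum, and this shift of whole libraries is the background of each comparison of tissues.

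The 3 subclusters differed in structure. The alpha subcluster spanned 257 kb and its genes shared 3 exons between bases 37156155 and 37187657. The gamma subcluster spanned 180 kb and its genes shared 3 exons between bases 37825021 and 37841873. The beta subcluster spanned 260 kb with 0 exons shared among its genes, which were 2588 to 8695 bases long. Of the gamma entries 21 were protein coding, while Pcdhgb8 was annotated as a polymorphic pseudogene, and the symbol Pcdha11 stood for 2 alpha entries.

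Each of the 10 bins touched a single subcluster, 3 for alpha, 4 for beta and 3 for gamma. The first alpha bin (chr18:36900001-37000000) held 9 gene starts, Pcdha1 to Pcdha9. The second alpha bin (chr18:37000001-37100000) held 4, with Pcdhac1 as the last of them. The third alpha bin (chr18:37100001-37200000) held only the start of Pcdhac2, together with the shared alpha exons. The beta bins (chr18:37200001-37600000) held 2, 6, 11 and 3 starts. The first, the second and the third gamma bins (chr18:37600001-37900000) held 7, 12 and 3 starts, and the 3 in the last of them were those of Pcdhgc3, Pcdhgc4 and Pcdhgc5, beside the shared gamma exons. Member genes covered 69.8, 100 and 87.7 kb of the alpha bins and 38.2, 100 and 41.9 kb of the gamma bins. Of the beta bins they covered only 5.4, 21.8, 46.5 and 18.5 kb. CpG sites per bin ran from 727 in the third alpha bin to 1872 in the second gamma bin, against a median of 776 over autosomal bins, and GC content ran from 39.5% to 45.4%.

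The promoters shared features of sequence that the choice of genes did not use. In the window from 250 bases before to 50 after the annotated start, median GC content was 39.7% over the 58 clustered protocadherins and 55% over 21749 protein-coding promoters. The ratio of observed to expected CpG was close in both, with medians of 0.521 and 0.530. It was higher in alpha (0.638) than in gamma (0.556) or beta (0.427), and the highest values were those of Pcdha6 (0.950), Pcdha8 (0.949) and Pcdha9 (0.927).

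The letters CGCT, which form the core of the conserved sequence element described for clustered protocadherin promoters, were present on either strand in 56 of the 58 windows (96.6%) and in 67.5% of all promoters. Pcdhb22 and Pcdhga12 were the exceptions, and both of their windows had 0 CpG sites. A core of the CTCF motif, read as CC, AG and GGC with 3 and 2 bases between them on either strand, was found in 4 windows (6.90%), those of Pcdha4, Pcdhac1, Pcdhb1 and Pcdhb15, against 9.49% of all promoters. Such matches of letters are a description of the windows and not of binding.

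5mC was lower across most of the cluster than in the genome at large and varied widely within it. In cortex the mean of a bin ran from 0.411 to 0.694 over the 10 bins, and 9 of them were under the autosomal median. In olfactory bulb the range was 0.391 to 0.708 and in cerebellum 0.429 to 0.684, with 10 of 10 under the autosomal median in both. The flanks were similar in this respect, with 19, 19 and 20 of their 20 bins under the median in the same order of tissues.

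**Figure D1:**
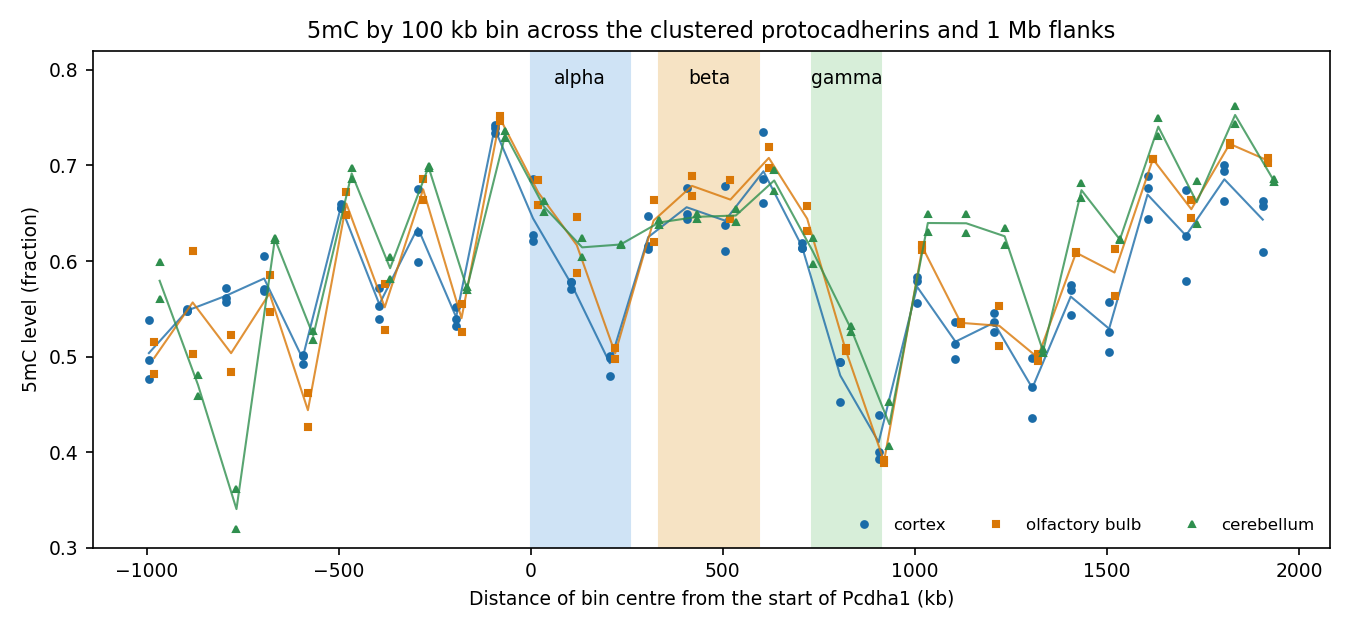
5mC level (fraction) of each 100 kb bin against the distance of its centre from the start of Pcdha1 (kb), with 1 point per oxBS-seq library (3 of cortex, 2 of olfactory bulb, 2 of cerebellum, shifted slightly sideways for visibility) and lines through the tissue means; shading marks the alpha, beta and gamma spans. Levels form a plateau over beta and drop to 0.389 to 0.452 in the last gamma bin, which extends beyond the cluster. At the end of alpha the cerebellum libraries (0.617 and 0.618) lie above those of cortex and olfactory bulb (0.480 to 0.509).

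The lowest 5mC of the cluster lay in the last gamma bin. Member genes covered 41.9 kb of that bin, and the rest of it lies beyond the cluster. In the third gamma bin, with the C-type gamma genes and the constant exons, the cortex libraries had 0.400, 0.439 and 0.393, those of olfactory bulb 0.389 and 0.392, and those of cerebellum 0.452 and 0.406. It was the lowest of the 10 bins in 7 of 7 libraries, and its tissue means stood at the 0.558, 0.408 and 0.929 percentile of 24011 autosomal bins in cortex, olfactory bulb and cerebellum. The olfactory bulb libraries lay just below all others, those of cortex and cerebellum overlapped, and no pair of tissues differed past the threshold in the limma fit described below.

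The second gamma bin, which lies wholly inside the subcluster and held the most gene starts, was also low. Its 5mC was 0.495, 0.494 and 0.452 in cortex, 0.509 and 0.506 in olfactory bulb and 0.526 and 0.532 in cerebellum. Those tissue means were at the 2.32, 2.82 and 3.53 percentile. The first gamma bin, with Pcdhga1 and its neighbours, was higher, from 0.597 to 0.657 over the libraries.

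From the first alpha bin to the third, 5mC was stepwise lower in cortex and olfactory bulb, while in cerebellum the second and the third were level. The first alpha bin had 0.627, 0.686 and 0.621 in cortex, 0.685 and 0.658 in olfactory bulb and 0.663 and 0.651 in cerebellum, so that the tissues overlapped. The second, which is covered by alpha genes over its whole length, had 0.579, 0.571 and 0.578 in cortex, 0.646 and 0.588 in olfactory bulb and 0.605 and 0.624 in cerebellum. In the third, with Pcdhac2 and the constant exons, cortex had 0.499, 0.480 and 0.501, olfactory bulb 0.509 and 0.497, and cerebellum 0.618 and 0.617. Its place among the 10 bins, counted from the lowest, was 2 to 3 in cortex and olfactory bulb and 4 in both cerebellum libraries.

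The beta bins, most of whose sequence lies outside member genes, had on average the highest levels. The fourth beta bin, where Pcdhb20, Pcdhb21 and Pcdhb22 start, was the highest of the 10 bins in 7 of 7 libraries, at 0.686, 0.735 and 0.661 in cortex, 0.719 and 0.697 in olfactory bulb and 0.673 and 0.696 in cerebellum. Its mean was at the 50.2, 41.7 and 22.9 percentile of autosomal bins in the same order of tissues. The other beta bins ranged from 0.610 to 0.689 over all libraries.

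Averaged over its bins, beta stood above alpha and alpha above gamma in every library. The means are of whole bins, with the sequence in them outside member genes included. Alpha was at 0.571 ± 0.00661 (SD, n = 3) in cortex, 0.597 ± 0.0227 (n = 2) in olfactory bulb and 0.630 ± 0.00155 (n = 2) in cerebellum. Beta was at 0.654 ± 0.0192, 0.673 ± 0.0152 and 0.655 ± 1e-06 in the same order of tissues. Gamma was at 0.502 ± 0.0138, 0.514 ± 0.00623 and 0.523 ± 0.0158.

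The order was tested within libraries, where a shift of a whole library cancels. Beta exceeded gamma by 0.148 ± 0.0169 (SD, n = 7) in 7 of 7 libraries, alpha exceeded gamma by 0.0839 ± 0.0223 in 7 of 7, and alpha minus beta was -0.0645 ± 0.0283, below 0 in 7 of 7. Each of these 3 differences had p = 0.0156 in a two-sided exact sign-flip permutation test, the smallest p that 7 libraries allow, and 0.0156 after Benjamini-Hochberg adjustment over the 3. The test takes the 7 libraries as independent, although libraries of different tissues may share a mouse.

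The gap between alpha and beta was narrower in cerebellum. Alpha minus beta was -0.0780, -0.0975 and -0.0739 in cortex, -0.0707 and -0.0813 in olfactory bulb, and -0.0261 and -0.0239 in cerebellum, with both cerebellum libraries outside the range of the others. The third alpha bin minus the other alpha bins was between -0.156 and -0.0987 in the 5 libraries of cortex and olfactory bulb and was -0.0158 and -0.0210 in cerebellum. The third gamma bin minus the other gamma bins was between -0.189 and -0.115 in all 7.

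**Figure D2:**
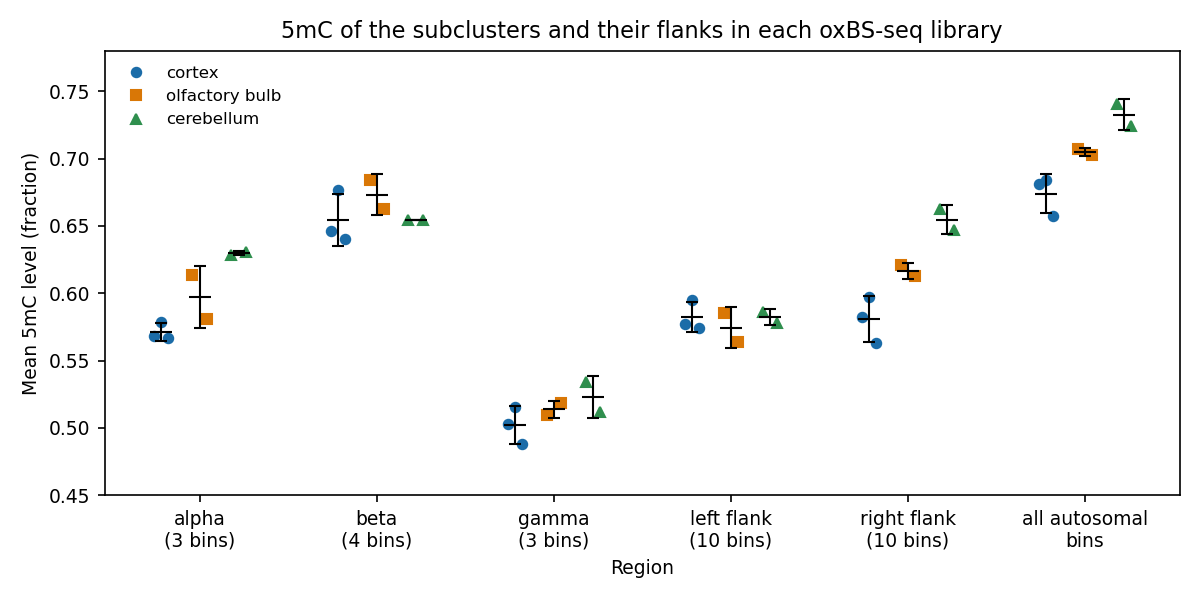
Mean 5mC level (fraction) of the alpha, beta and gamma bins, of the left and right 1 Mb flanks and of all autosomal 100 kb bins, with 1 point per oxBS-seq library, and black bars for the tissue mean and SD. Beta lies above alpha and alpha above gamma in each of the 7 libraries, and only in alpha (0.568 to 0.579 in cortex, 0.629 and 0.631 in cerebellum), the right flank and the autosomal mean do the cortex and cerebellum libraries not overlap.

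Over the 10 bins, 5mC level and sequence were loosely related, given here as a description over bins of 1 locus that share their libraries. Pearson's r between level and CpG sites was -0.218, -0.170 and -0.357 for cortex, bulb and cerebellum, against -0.640, -0.643 and -0.652 over 24011 autosomal bins. With GC content r was -0.638, -0.660 and -0.851, while Spearman's rho was -0.321, -0.176 and -0.406, since the third gamma bin combined the highest GC content with the lowest level. With the number of gene starts r was 0.119, 0.174 and -0.00291. With the bases of a bin covered by member genes r was -0.500, -0.401 and -0.255, and rho was -0.553, -0.498 and -0.371.

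Against their flanks the subclusters parted in both directions. Beta was above the mean of the flanks by 0.0638 ± 0.0198 (SD, n = 7) in 7 of 7 libraries, and gamma minus the flanks was -0.0846 ± 0.0107, below 0 in 7 of 7 (exact sign-flip permutation p = 0.0156 for both, 0.0313 after adjustment over 4 such tests). Alpha minus the flanks was -0.000746 ± 0.0124 (p = 0.875, adjusted 0.953) and the 10 bins together -0.000115 ± 0.00789 (p = 0.953, adjusted 0.953) in the same exact test. Against the rest of chromosome 18, in contrast, alpha, beta and gamma were each lower in 7 of 7 libraries, with mean differences of -0.110, -0.0458 and -0.194, and that of the 10 bins together was -0.110 ± 0.0198 (exact sign-flip permutation p = 0.0156 for each of the 4, and the same after adjustment over them).

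The comparison of tissues asked whether the bins of the cluster followed the rise in 5mC from cortex to olfactory bulb and cerebellum. Levels were compared as log2(level/(1 − level)) with limma in 1 fit over 25664 bins and the 3 tissues, and a bin was called at a Benjamini-Hochberg adjusted p under 0.05 over all of those bins. The median difference over all bins on this scale was 0.22 for olfactory bulb minus cortex, 0.43 for cerebellum minus cortex and 0.19 for cerebellum minus olfactory bulb.

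In cerebellum 2 of the 10 bins were higher than in cortex, while 71.9% of all bins were. The third alpha bin, with Pcdhac2 and the alpha constant exons, rose by 0.73 (SE 0.117, adjusted p = 5.44e-09), from a mean level of 0.493 ± 0.0116 (SD, n = 3) to 0.617 ± 0.000889 (n = 2). The second gamma bin, from Pcdhga6 to Pcdhga12 and the Pcdhgb genes among them, rose by 0.28 (SE 0.117, adjusted p = 0.0231), from 0.480 ± 0.0242 to 0.529 ± 0.00389. The call in gamma was lost without the third cortex library (0.20, adjusted p = 0.0919), where the second alpha bin was called in its place (0.24, adjusted p = 0.0449), without the first cerebellum library (0.30, adjusted p = 0.0800) and without the second (0.27, adjusted p = 0.103), whereas that of the third alpha bin was kept without any one library, at 0.69 to 0.75.

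The remaining 8 bins did not pass. Their differences ran from -0.07 in the fourth beta bin to 0.23 in the second alpha bin (adjusted p = 0.0642), and 0 of the 10 bins were lower in cerebellum, against 4.44% of all bins. The 4 beta bins were between -0.07 and 0.09, below the median difference of 0.43 over all bins. In 3 of the 10 bins (the second and the third alpha bins and the second gamma bin) the libraries of cortex and cerebellum did not overlap, which held for 81.9% of all bins.

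Against olfactory bulb the third alpha bin again rose in cerebellum, by 0.67 (SE 0.128, adjusted p = 2.92e-06), from a mean level of 0.503 ± 0.00844 (SD, n = 2). It was the only one of the 10 bins higher in cerebellum, against 35.3% of all bins. None of the 10 was called lower, against 7.69% of all bins, although 7 of 10 differences were below 0, with -0.21 in both the second beta bin (adjusted p = 0.176) and the first gamma bin (adjusted p = 0.178). The libraries of the 2 tissues did not overlap in 6 of the 10 bins, 3 higher and 3 lower in cerebellum, and in 74.8% of all bins.

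Between olfactory bulb and cortex 0 of 10 bins differed in limma, while 37.6% of all bins were higher and 2.18% lower in olfactory bulb. The unadjusted p was under 0.05 in 1 bin, the second alpha bin, which had the largest difference (0.25, SE 0.118, adjusted p = 0.0768), and 0 bins passed on the fraction scale or with limma's trend and robust options. The difference was above 0 in 9 of the 10 bins and -0.12 (adjusted p = 0.401) in the third gamma bin. In 4 of 10 bins the libraries did not overlap, against 65.1% of all bins.

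**Figure D3:**
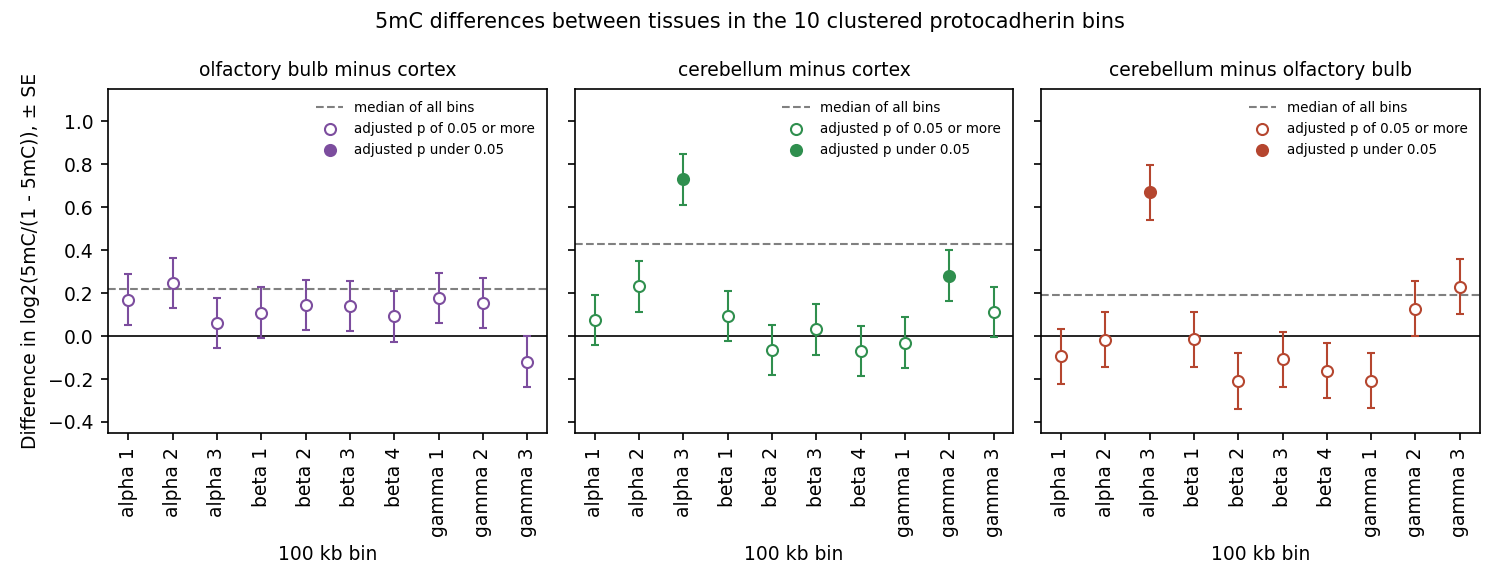
Difference between tissues in log2(5mC/(1 − 5mC)) with its limma standard error (bars, nearly equal for all bins of a panel) for the 10 bins of 100 kb, 1 panel per pair of tissues; filled points had an adjusted p under 0.05, open points did not, and the dashed line is the median over all 25664 bins. The third alpha bin is at 0.73 and 0.67 in the comparisons of cerebellum with cortex and olfactory bulb, and the beta bins lie from -0.07 to 0.09 against cortex, under the dashed line at 0.43.

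Because most of the genome rose in 5mC, the bins were also compared after centring each library on its median over all bins, which asks how a bin moved relative to the rest. Of the 10 bins, 7 were then lower in cerebellum than in cortex and 1 was higher, where 24.3% and 25.7% of all bins were. The bins lower after centring were the 4 beta bins, from -0.31 (adjusted p = 0.0294) to -0.48 (adjusted p = 0.00197), the first alpha bin (-0.33, adjusted p = 0.0106) and the first and the third gamma bins (-0.44 and -0.30, adjusted p = 6.71e-04 and 0.00816). The third alpha bin stayed higher, by 0.32 (adjusted p = 0.00779), while the second gamma bin, called higher without centring, was at -0.13 (adjusted p = 0.173). Such a rise was not particular to the third alpha bin. The right flank bins from 38000001 and 38300001 were higher by 0.33 (adjusted p = 0.00180) and 0.28 (adjusted p = 0.00433). Other flank bins were lower or did not pass.

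Against olfactory bulb, 5 of the 10 bins were lower in cerebellum after centring and 1 was higher, where 21.3% and 22.1% of all bins were. The bins lower were the first alpha bin, the second, the third and the fourth beta bins and the first gamma bin, from -0.28 (adjusted p = 0.0466) to -0.39 (adjusted p = 0.00247), and the bin higher was the third alpha bin, by 0.49 (adjusted p = 9.79e-04). Between olfactory bulb and cortex 1 bin was lower, the third gamma bin (-0.34, adjusted p = 0.00949), and 0 were higher, where 9.9% and 8.81% of all bins were.

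As means over bins, the alpha libraries of the 3 tissues stood apart in each comparison. Alpha in cerebellum was 0.0584 above cortex (two-sided exact permutation p = 0.1) and 0.0323 above olfactory bulb (exact p = 0.33), and alpha in olfactory bulb was 0.0260 above cortex (exact p = 0.1), with no overlap of libraries in any of the 3 comparisons. Beta differed by 0.000253 between cerebellum and cortex (exact permutation p = 1) and gamma by 0.0208 (exact p = 0.3), with overlapping libraries in both, while beta in cerebellum was -0.0187 from olfactory bulb without overlap (exact p = 0.33). The smallest p that 2 libraries against 3 and 2 against 2 allow is 0.1 and 0.33, and after adjustment over the 9 comparisons none was under 0.45.

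The difference in alpha was largest in the third of its bins. In the second alpha bin alone, the only bin wholly inside the alpha span, cerebellum was 0.0385 above cortex and -0.00240 from olfactory bulb (exact permutation p = 0.1 and 1). In the second gamma bin, likewise wholly inside, cerebellum was 0.0487 above cortex (exact permutation p = 0.1). After subtraction of the autosomal mean of each library, alpha differed between cerebellum and cortex by -2.86e-05 (exact p = 1), beta by -0.0581 and gamma by -0.0376 (exact p = 0.1 for both).

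The difference from the flanks also varied among tissues. Beta minus flanks was 0.0663, 0.0804 and 0.0718 in cortex, 0.0809 and 0.0744 in olfactory bulb, and 0.0303 and 0.0421 in cerebellum. The change from cortex to cerebellum was -0.0366 for beta, -0.0161 for gamma and 0.0215 for alpha (exact permutation p = 0.1 for each, 0.24 after adjustment over 12 comparisons), in each case without overlap of the libraries. The sign for alpha turned with the right flank alone (-0.0155) and with the rest of chromosome 18 (-0.00535), and that for gamma with the left flank alone (0.0208).

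The flanks themselves were not alike. The left flank was at 0.582 ± 0.0110 (SD, n = 3) in cortex and 0.582 ± 0.00604 (n = 2) in cerebellum, while the right flank was at 0.581 ± 0.0171 and 0.655 ± 0.0106. In the left flank the bins of Nrg2, a neuregulin that signals through ErbB receptors, were lower in cerebellum, by -1.32 (adjusted p = 2.34e-25, limma) in the bin with the larger change, whose mean fell from 0.564 in cortex to 0.341. Beta minus the left flank alone differed by 0.000308 between cerebellum and cortex, and beta minus the right flank alone by -0.0736, so the size of the change depended on which side was used. Of the 20 flank bins, 11 were higher and 2 lower in cerebellum than in cortex, where 71.9% and 4.44% of all bins were. Of the 18 that held any of the 38 protein-coding genes of the flanks, 10 were higher and 2 lower.

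Protocadherins outside the cluster had higher 5mC in cerebellum than in cortex in most of their bins, as did the genome at large. The 12 genes of this kind, each with a locus of its own, overlapped 50 bins, of which 40 were higher in cerebellum than in cortex and 0 lower, where 71.9% of all bins were higher, with a median difference of 0.72, against 0.08 over the 10 clustered bins and 0.43 over all bins. Pcdh7 had 5 of 5 bins higher, with mean 5mC at 0.598 in cortex and 0.757 in cerebellum, and Pcdh15, a component of the tip links of hair cells, had 17 of 17, at 0.692 and 0.796. Pcdh10 had 2 of 2 higher and Pcdh9 9 of 9, with 0.570 and 0.607 in cortex and 0.712 and 0.719 in cerebellum. Pcdh11x, on chromosome X, had 0 of 8 bins higher than in cortex, at 0.705 and 0.708. Of its bins, 2 were lower in cerebellum than in olfactory bulb, where 7.69% of all bins were. The closest of them by position, Pcdh1 and Pcdh12 in the right flank, had 1 of 2 and 0 of 1 bins higher. Between olfactory bulb and cortex, 22 of the 50 bins were higher and 0 lower, where 37.6% of all bins were higher.

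Genes known to act on the cluster were counted the same way. The 10 regulators (among them Ctcf, the cohesin subunits Rad21 and Smc3, the cohesin loader Nipbl and the cohesin release factor Wapl) overlapped 14 bins, of which 11 were higher in cerebellum than in cortex and 0 lower, a share near the 71.9% of all bins. Nipbl (3 of 3 bins, at 0.678 in cortex and 0.754 in cerebellum) and Smchd1, a chromatin protein that represses the cluster (2 of 2, at 0.689 and 0.771), showed the largest changes, while the bins of Ctcf, Rad21 and Smc3 did not pass in any comparison. The 4 genes of signalling partners overlapped 9 bins, 6 of them higher and 0 lower, also near that share, with Ptk2, the focal adhesion kinase that binds protocadherin tails, at 0.556 in cortex and 0.766 in cerebellum. In olfactory bulb, 2 of 3 bins of the kinase gene Fyn were lower than in cortex, with mean levels of 0.456 and 0.558, and 2.18% of all bins were lower. Among markers of glia, 4 of 5 bins of 4 oligodendrocyte genes and 8 of 9 bins of 4 astrocyte genes were higher in cerebellum than in cortex and 0 lower, where 71.9% of all bins were higher, and the part of cell composition in the results above was not tested.

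5hmC was low over the cluster. The 1 Mb bin chr18:37000001-38000000, which holds all of beta and gamma and the larger part of alpha (460 kb of member genes in all), had 5hmC of 0.0912, 0.1001 and 0.0870 in cortex, 0.0809, 0.0911 and 0.0862 in olfactory bulb, and 0.0698, 0.0732 and 0.0742 in cerebellum. Its means were at the 4.93, 8.54 and 30.3 percentile of 2413 autosomal bins. The cortex and olfactory bulb libraries overlapped, and each cerebellum library was below all of the others.

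The bin before it, chr18:36000001-37000000, which contains only the first 69.8 kb of alpha, was higher. It had 0.151, 0.163 and 0.148 in cortex, 0.143, 0.152 and 0.141 in olfactory bulb and 0.135, 0.136 and 0.141 in cerebellum. Its means were at the 28.1, 40.0 and 81.1 percentile, so its place in the genome was much higher in cerebellum than in cortex.

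Within each library the cluster had less 5hmC than its flanks. The 37000001-38000000 bin minus the mean of the flanking bins was -0.120 ± 0.00364 (SD, n = 3) in cortex, -0.108 ± 0.00427 (n = 3) in olfactory bulb and -0.0857 ± 0.00205 (n = 3) in cerebellum, below 0 in 9 of 9 libraries (two-sided exact sign-flip permutation p = 0.00391, the smallest that 9 libraries allow, and 0.00391 after adjustment over the 2 bins). As a ratio, it was at 0.436 ± 0.0103, 0.444 ± 0.0217 and 0.458 ± 0.00690 of the flanks in the same order. The 36000001-37000000 bin was at 0.725 ± 0.00378, 0.749 ± 0.0130 and 0.869 ± 0.00472, and below the flanks in 9 of 9 libraries, but against the rest of chromosome 18 in only 6 of 9.

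**Figure D4:**
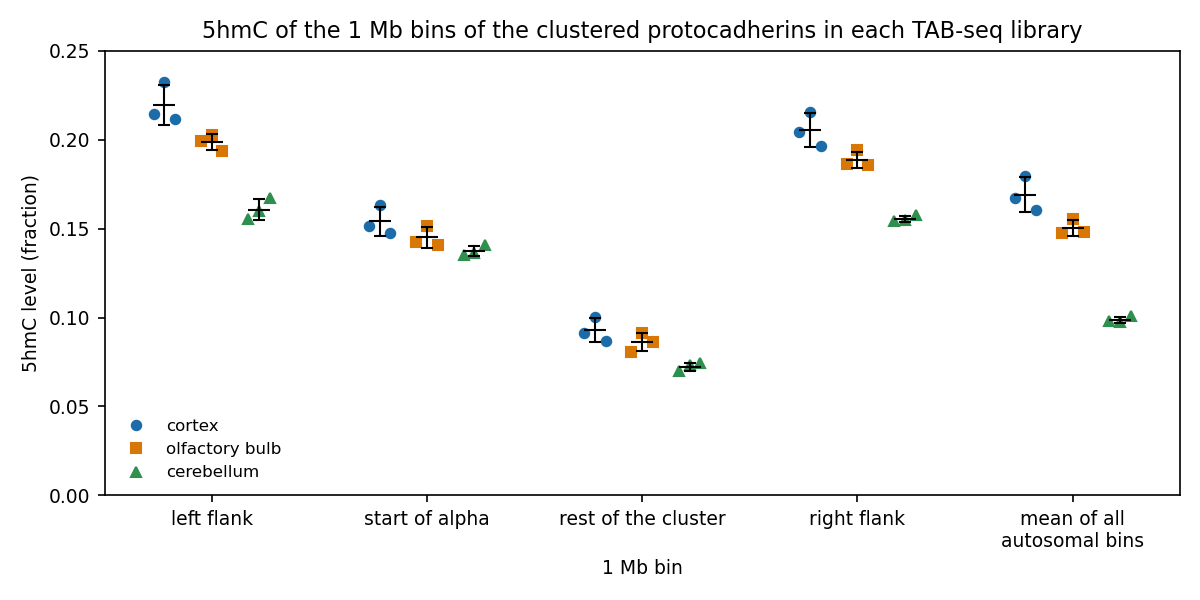
5hmC level (fraction) in the 1 Mb bin before the cluster (left flank), the bin with the start of alpha, the bin with the rest of the cluster, the bin after it (right flank) and the mean of all autosomal bins, with 1 point per TAB-seq library (3 per tissue) and black bars for mean and SD. The bin with the rest of the cluster is the lowest of the 4 bins in all 9 libraries, from 0.0698 to 0.1001, and the tissues lie closer together there than in the flanks.

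Differences in 5hmC between tissues went the same way as in the genome but were smaller. Over 2581 bins the median difference on the log2(level/(1 − level)) scale was -0.24 for olfactory bulb minus cortex, -0.97 for cerebellum minus cortex and -0.72 for cerebellum minus olfactory bulb. In cerebellum the 37000001-38000000 bin fell by 0.39 (SE 0.0732, limma adjusted p = 1.31e-07) against cortex and the 36000001-37000000 bin by 0.19 (adjusted p = 0.00903). Both were thus called lower, as were 97.6% of all bins. The SE was 0.0732 for both bins in each comparison of tissues, so here too it is a spread shared over bins.

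Against olfactory bulb, the 37000001-38000000 bin fell by 0.27 in cerebellum (adjusted p = 2.73e-04) and the 36000001-37000000 bin did not pass, at -0.09 (adjusted p = 0.229). Thus 1 of the 2 was lower, where 91.8% of all bins were. Between olfactory bulb and cortex they were at -0.12 (adjusted p = 0.135) and -0.10 (adjusted p = 0.198), and 0 of 2 passed in limma, also without adjustment, where 67.7% of all bins were lower. The first of these passed without the third cortex library (-0.17, adjusted p = 0.0337).

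Relative to the median of each library the direction turned. After centring, the 37000001-38000000 bin was higher in olfactory bulb than in cortex by 0.12 (adjusted p = 0.00487), in cerebellum than in cortex by 0.65 (adjusted p = 1.21e-08) and in cerebellum than in olfactory bulb by 0.53 (adjusted p = 5.81e-08). The 36000001-37000000 bin was higher by 0.14 (adjusted p = 1.31e-04), 0.85 (adjusted p = 3.87e-10) and 0.71 (adjusted p = 6.31e-10). Both bins were thus among the 36.2%, 50.3% and 50.9% of all bins that were higher after centring in these comparisons. The 5hmC of these bins, of which that from 36000001 holds only 69.8 kb of member genes, dropped less than that of most bins. That of the flanks did so as well (0.49 and 0.55 in cerebellum against cortex). The study places the very low 5hmC outside gene bodies within the error of TAB-seq. How far such error adds to the levels of these bins was not tested, and no correction for it was made here.

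The sum of both modifications was low as well. With the 100 kb bins averaged to 1 Mb, 5mC and 5hmC of the 37000001-38000000 bin added up to 0.669 ± 0.0130 (cortex), 0.683 ± 0.0108 (olfactory bulb) and 0.678 ± 0.00529 (cerebellum), where the error is the root of the summed squared SDs and no test was made. The medians over 2413 autosomal bins were 0.854, 0.867 and 0.841, and the bin stood at the 0.456, 0.580 and 0.995 percentile. Only 2, 4 and 5 autosomal bins, the bin itself included, were as low or lower in both 5mC and 5hmC in the 3 tissues.

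5hmC made up 13.9%, 12.6% and 10.7% of this sum in the same order of tissues. Over autosomal bins the median share was 20.9%, 18.1% and 11.6%, and so the bin was below the median by a wide margin in cortex and by a narrow one in cerebellum. In the flanks the share was 28.4% and 26.1% in cortex and 20.4% and 19.3% in cerebellum. In the 36000001-37000000 bin it was 20.5%, 19.7% and 18.9%.

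**Figure D5:**
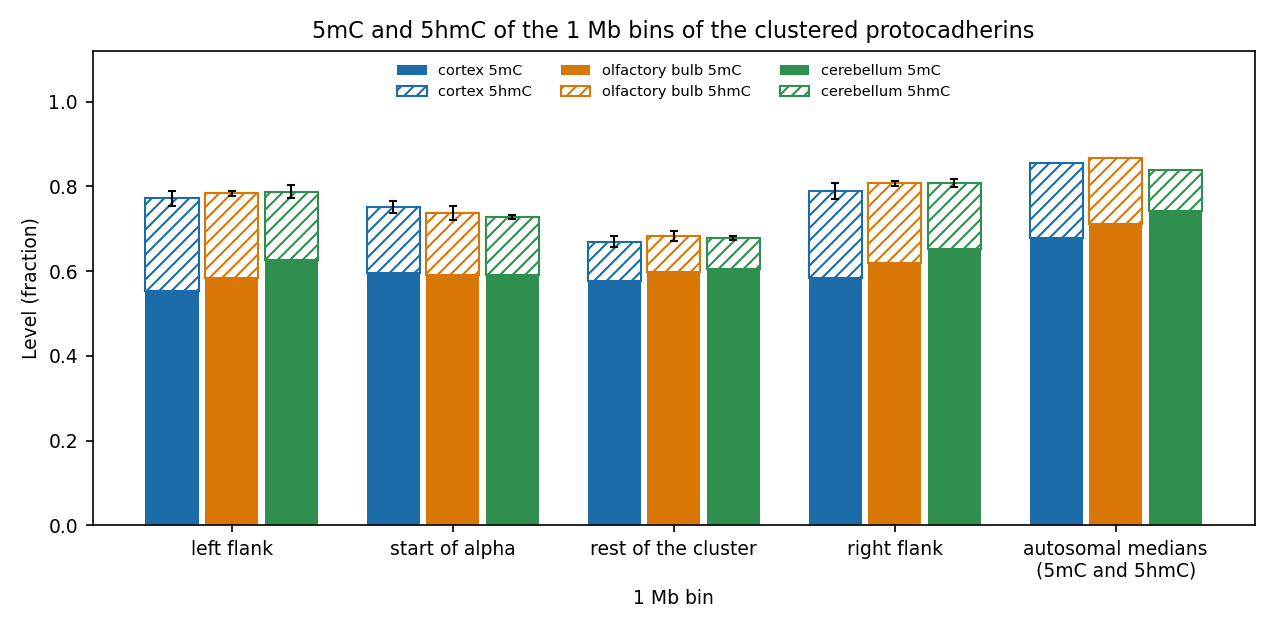
5mC (filled bars) and 5hmC (hatched bars) as levels (fraction) stacked per tissue for the 4 bins of 1 Mb around the clustered protocadherins, with tissue means and, on the sum, the root of the summed squared SDs; the rightmost bars stack the autosomal medians of 5mC and of 5hmC. The sum is lowest, at 0.669 to 0.683, in the bin with the rest of the cluster, where the error bars of the 3 tissues overlap.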

How the data were processed

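Libraries were grouped by tissue from their labels, with 7 for oxBS-seq and 9 for TAB-seq. The authors mapped paired reads uniquely to mm10 with Bismark and deposited, for each library, the modified fraction per bin, 5mC in 26327 bins of 100 kb and 5hmC in 2641 bins of 1 Mb, without coverage. The way in which sites were pooled into a bin is not given in the sources used here. The study states its sequencing depth per tissue, but the deposited values carry none per bin, so bins with few CpG sites may rest on less data. The RNA-seq libraries were not analysed here.

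Bins with a 0 or a 1 in some library were dropped for that assay, which kept 25664 and 2581 bins, with all 10 and both bins of the cluster among them. limma 3.58.1 in R 4.3.3 was run on log2(level/(1 − level)) with 1 fit per assay and Benjamini-Hochberg adjustment over all bins, and was tested on simulated data. Single values per library were compared with two-sided exact permutation tests. Gene positions came from GENCODE M21 and sequence features from GRCm38. Python 3.11.15 with numpy 2.4.6, pandas 2.3.3 and matplotlib 3.10.9 did the rest. Subcluster means are unweighted over bins. Percentiles give the share of autosomal bins with a lower mean level.

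The genes examined were all clustered protocadherins, the protein-coding genes of the flanks, 12 other protocadherins, 10 regulators and 4 signalling partners. Outside the cluster, values are given for some genes in which a bin passed, mostly those with the largest changes. Others that passed, such as Pcdh17, Pcdh18 and Ptk2b, were only counted. Pcdh11x was given besides, and Pcdh1 and Pcdh12 for their position. These members, lists and tests were chosen with earlier results of these data known. Alternatives were the fraction scale, centring, limits of 0.001 and 0.999 in place of the filter, limma's trend and robust options, autosomes only, other flanks (500 kb, 1 side, rest of chromosome 18), other summaries over bins, blocking on the replicate number, and dropping each library in turn. The files carry no sequencing batch. Sequence is not printed.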

Additional observations from a re-analysis of the deposited data

Results flagged for a closer look

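Mean 5mC of the 10 clustered protocadherin bins minus their flanks had opposite signs in cerebellum and olfactory bulb. It was -0.0108 ± 0.00405 (SD, n = 2) in cerebellum, with both libraries below 0 (-0.0137 and -0.00796), and 0.00707 ± 0.000393 (n = 2) in olfactory bulb, with both above 0 (0.00735 and 0.00679). The alpha bins minus the flanks were at 0.0112 ± 0.00986 (n = 2) in cerebellum, above 0 in both libraries, and -0.0103 ± 0.00763 (n = 3) in cortex, below 0 in 3 of 3. The differences did not pass: the exact permutation p was 0.33 for cerebellum against olfactory bulb over the 10 bins (0.50 after adjustment over 12 comparisons) and 0.1 for cerebellum against cortex in alpha (0.24 after adjustment), in both cases the smallest that this number of libraries allows. Both depend on the flank that is used, as the 5mC of the left and right flanks moved apart in cerebellum.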

How the results depend on the processing

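The count of clustered protocadherin bins with higher 5mC in cerebellum than in cortex was 1 to 2 when each library was left out (without the third cortex library, the second alpha bin replaced the second gamma bin), and the 5hmC difference of the 37000001-38000000 bin between olfactory bulb and cortex was -0.17 to -0.0565, passing in limma without the third cortex library. Where 1 library of a tissue remained, limma took its spread from the other tissues. Levels limited in place of the filter, autosomes only, and limma's trend and robust options changed no call among the 10 bins, and the fraction scale added only the second alpha bin (0.0385, adjusted p = 0.0397) to those higher in cerebellum than in cortex.

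Centring on the library median changed most. It gave 1 bin lower in olfactory bulb than in cortex, 1 higher and 7 lower in cerebellum than in cortex, and 5 lower in cerebellum than in olfactory bulb. Differences of cerebellum from cortex turned to -0.33 in the first alpha bin, -0.18 in the second (adjusted p = 0.177, not called before either), -0.31 and -0.38 in the first and the third beta bins, and -0.13 and -0.30 in the second and the third gamma bins. The 5hmC differences turned as well, to 0.14, 0.85 and 0.71 in the 36000001-37000000 bin and 0.12, 0.65 and 0.53 in the 37000001-38000000 bin (olfactory bulb minus cortex, cerebellum minus cortex and cerebellum minus olfactory bulb).

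Minus the autosomal mean of each library, olfactory bulb minus cortex was -0.00493, -0.0120 and -0.0192 for alpha, beta and gamma, cerebellum minus cortex -2.86e-05, -0.0581 and -0.0376, and cerebellum minus olfactory bulb 0.00491, -0.0461 and -0.0184. For cerebellum minus cortex, alpha was at 0.0385 in bins wholly inside, 0.0451 as a median over bins and 0.0437 weighted by CpG sites, and gamma at 0.0487 in bins wholly inside and as a median. For cerebellum minus olfactory bulb, alpha was at -0.00240 in bins wholly inside and 0.00427 as a median.

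Differences from the flanks depended on the flank. With 500 kb flanks, cerebellum minus cortex was -0.0352 for the 10 bins, -0.000689 for alpha, -0.0588 for beta and -0.0383 for gamma, cerebellum minus olfactory bulb -0.0356 for the 10 bins, -0.00817 for alpha and -0.0592 for beta, and olfactory bulb minus cortex 0.000368 for the 10 bins. With the rest of chromosome 18, cerebellum minus cortex was -0.0399, -0.00535, -0.0635 and -0.0429, cerebellum minus olfactory bulb -0.0340, -0.00664 and -0.0576, and olfactory bulb minus cortex -0.00582 for the 10 bins and -0.00581 for beta. With the left flank alone, olfactory bulb minus cortex was 0.0266, 0.0337, 0.0266 and 0.0194 for the 10 bins, alpha, beta and gamma, cerebellum minus cortex 0.0239, 0.0584, 0.000308 and 0.0208, and cerebellum minus olfactory bulb -0.00265 for the 10 bins and -0.0263 for beta. With the right flank alone these were -0.0169, -0.00976, -0.0169 and -0.0240, then -0.0500, -0.0155, -0.0736 and -0.0531, then -0.0331 and -0.0567. The 5hmC of the 36000001-37000000 bin minus the rest of chromosome 18 was -0.00372 (exact sign-flip permutation p = 0.691). The cause of these changes was not tested.

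Whether the replicate numbers pair the libraries could not be settled. Deviations of same-numbered libraries from their tissue means correlated at -0.0932 to 0.0290 over 6 pairs for 5mC and at -0.191 to 0.429 over 9 pairs for 5hmC. Those of differently numbered libraries correlated at -0.0301 to 0.0932 over 10 pairs and at -0.408 to 0.276 over 18 pairs. Where a tissue has 2 libraries their deviations mirror each other, so each 5mC value recurs with the sign changed. In 5mC only cortex had a replicate 3, so a block on the replicate number takes that library out of the comparison of tissues. Cerebellum minus cortex was then the same as without cortex replicate 3, at 0.24 and 0.20 in the 100 kb bins from 37000001 and 37700001. For 5mC this block is therefore no separate check of pairing. With the replicate number as a block, 2 bins were higher in cerebellum than in cortex. They were the second alpha bin (0.24, adjusted p = 0.0371) and the third alpha bin, while the second gamma bin was at 0.20 (adjusted p = 0.0781). With the numbers in the library names as the block, 3 were higher. No other call of a bin in 5mC or 5hmC changed with the block.

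Without coverage, the precision of a single bin is unknown, and 2 or 3 libraries per tissue keep exact tests between tissues from passing 0.05. The 100 kb bins join promoters, introns and constant exons, and the 1 Mb bin 37000001-38000000 joins sequence of all subclusters.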
